A study of Mus musculus with 6 samples.

Results

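Lrrc75b and its paralog Lrrc75a are 2 of the 56691 genes in a table of RNA levels from 4T1 cells, a mouse mammary carcinoma line. Lrrc75b was picked because it had the largest rise in this comparison on the log2(FPKM + 0.5) scale, so its own rise is described here without a test. Lrrc75a was taken as its relative and not for its values. There were 3 vehicle libraries and 3 libraries from cells given KIRA6 at 1 µmol/L, all collected after 4 h in fresh medium. KIRA6 is a kinase-binding inhibitor of IRE1α, which senses unfolded proteins in the endoplasmic reticulum and cuts RNA when active; the compound dampens that RNase. The labels do not name the vehicle or say whether libraries came from separate cultures, so the spread between libraries may be technical.

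Leucine-rich repeats are short protein segments that fold into a curved surface and often bind other proteins. Many unrelated proteins carry them, and Lrrc names mark genes grouped by this repeat and not by a shared task. Lrrc75b and Lrrc75a, earlier named Fam211b and Fam211a, are paralogs within this group, and little is known of either. In cultured myoblasts Lrrc75b has been reported to hold back muscle differentiation and to bear on ERK activity.

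Lrrc75b (ENSMUSG00000046807) lies on the minus strand of chromosome 10, from 75385957 to 75396164 on GRCm39, with an exonic length of 4603 bases. Lrrc75a (ENSMUSG00000046417) lies on the minus strand of chromosome 11, from 62495710 to 62539349, with an exonic length of 2089 bases. In the GENCODE M21 annotation the full-length coding transcript of each gene has 4 exons. Coding sequence takes 918 of 4601 bases in Lrrc75b-201 and 1017 of 1984 bases in Lrrc75a-201, without the stop codon. Lrrc75b therefore has the longer sequence after its stop codon, 3470 bases against 831. Exon 2, which is coding throughout, has 129 bases in both genes. It is shown because it displays both the kinship of the genes and how far their fragments can be told apart, with bases that differ between them in capitals and both read 5′ to 3′.
Lrrc75b exon 2: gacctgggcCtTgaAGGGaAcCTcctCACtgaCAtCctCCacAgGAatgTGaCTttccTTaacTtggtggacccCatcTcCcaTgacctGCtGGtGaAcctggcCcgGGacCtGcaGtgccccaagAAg
Lrrc75a exon 2: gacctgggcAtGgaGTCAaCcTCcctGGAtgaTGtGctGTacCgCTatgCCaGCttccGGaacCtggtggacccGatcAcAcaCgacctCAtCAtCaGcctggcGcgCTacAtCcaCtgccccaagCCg

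Exon 2 is identical at 84 of 129 bases (65.1%), and its longest unbroken identical stretch is 10 bases. Over the whole transcripts the longest run shared on the same strand is 19 bases, and no run of 31 bases occurs in both genes. By these transcript models, an error-free match of 31 bases or more falls in one paralog or the other, not in both. Runs of 31 bases found in transcripts of other genes cover 144 bases (3.13%) of Lrrc75b-201, all after the stop codon. In Lrrc75a-201 they cover 87 bases (4.39%), all shared with the opposite-strand transcript Lrrc75aos2.

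The libraries held an estimated 16499100 to 21352350 fragments assigned to genes. Vehicle replicate 3 and KIRA6 replicate 1 stood apart from the rest of their groups. Across tested genes, Vehicle replicate 3 correlated at 0.936 and 0.949 with the other vehicle libraries, which correlated with each other at 0.992. KIRA6 replicate 1 correlated at 0.9495 and 0.964 with the other KIRA6 libraries, which correlated with each other at 0.986. Levels are in FPKM, the fragments of a gene per kilobase of its exons, scaled to the library total. Of 9 epithelial markers 8 averaged 0.5 FPKM or more, and Krt5 was at 0. The summed level of the 9 ran from 1426 to 1563 FPKM in vehicle and from 1798 to 1911 FPKM with KIRA6. Its members differed: mean Krt14 rose from 22.9 to 162 FPKM and mean Krt19 from 22.4 to 110 FPKM. Epcam and Cldn4 were also called higher by limma. Krt18 was lower in every KIRA6 library, with means of 597 and 500 FPKM, and was not called. Krt8, Krt7 and Cdh1 were not called either. Leukocyte and endothelial markers summed to at most 0.16 FPKM in any library, and both adipocyte markers were at 0. The 5 fibroblast markers summed to 0.44 to 0.77 FPKM in vehicle and 1.91 to 3.78 FPKM with KIRA6, nearly all from Pdgfra, which rose (adjusted p = 0.006113 by limma), while Col1a1, Col1a2, Pdgfrb and Dcn stayed at or below 0.08 FPKM. The 5 muscle markers summed to 0.16 to 0.40 FPKM in vehicle and 0.93 to 1.5 FPKM with KIRA6, nearly all from the actin gene Acta1. The part of such cells in the Lrrc75b values was not tested.

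Lrrc75b was close to silent in vehicle and well expressed after KIRA6. Its level in the vehicle libraries was 0.31, 0.51 and 0.56 FPKM. In the KIRA6 libraries it was 28.26, 25.06 and 27.50 FPKM. The groups were far apart: the lowest KIRA6 library was 44.8 times the highest vehicle library, and the highest KIRA6 library 91.2 times the lowest vehicle library. For 27.7% of tested genes every KIRA6 library was above every vehicle library by some margin, and nothing is read from it for a gene chosen by its rise. In these bulk samples a larger share of cells with the transcript and more transcript per cell cannot be told apart.

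**Figure D1:**
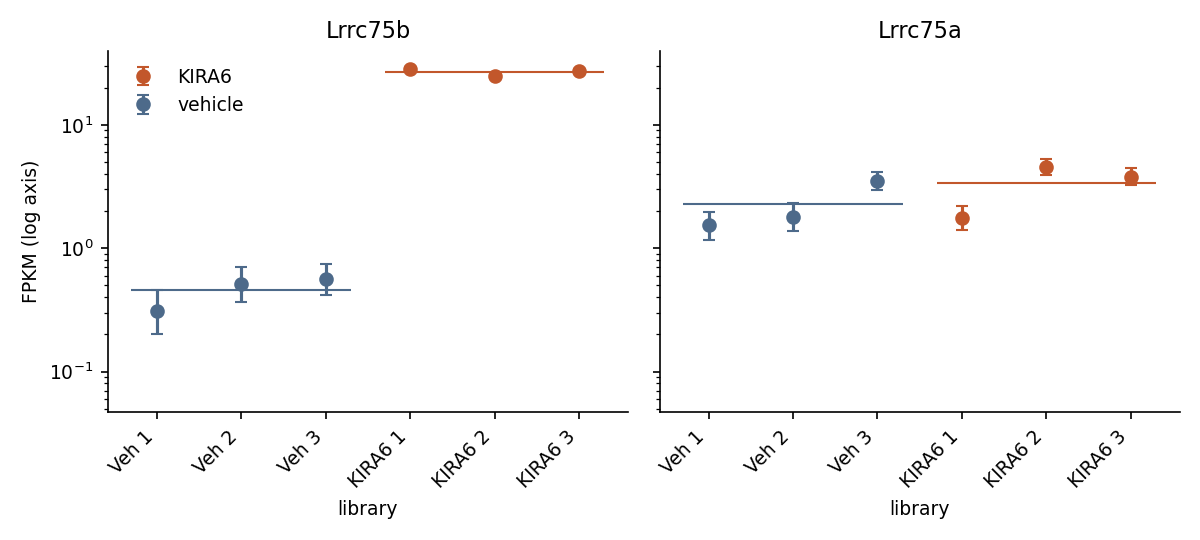
FPKM of Lrrc75b (left) and Lrrc75a (right) in each library on a log axis, with points for libraries, bars for 95% exact Poisson intervals of the estimated fragments and horizontal lines for group means. Lrrc75b lies between 0.31 and 0.56 FPKM in vehicle and between 25.06 and 28.26 FPKM with KIRA6, while the Lrrc75a groups overlap.

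The group means were 0.460 ± 0.132 FPKM in vehicle and 26.9 ± 1.67 FPKM with KIRA6 (SD, n = 3 each), a difference of 26.5 FPKM and a ratio of means of 58.6. Relative to the mean, the spread was 28.8% in vehicle and 6.21% with KIRA6. Counting error bears mostly on the vehicle values. They rest on an estimated 26, 39 and 48 fragments, against 2778, 2101 and 2513 with KIRA6. The 95% exact Poisson intervals, which cover counting error only, were 0.203 to 0.455 FPKM in Vehicle replicate 1 and 0.414 to 0.744 FPKM in Vehicle replicate 3. These overlap in a narrow range, which is no test of a difference, and the order of the vehicle libraries was not tested. All 3 vehicle values nonetheless lay above the 0.0351 to 0.0395 FPKM that a count of 0 would allow.

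Set against other genes, Lrrc75b moved from the lower part of the detected range into its upper part. In vehicle 27.7%, 32.2% and 32.2% of the genes above 0 FPKM in the library had a lower FPKM. These shares were 90.2%, 89% and 90.1% with KIRA6. In vehicle 2.54%, 6.05% and 6.59% of the 11778 tested genes, those averaging 0.5 FPKM or more, had a lower FPKM. With KIRA6 the shares were 85%, 83.4% and 85%. Lrrc75b passed that filter only through its KIRA6 values, so its low place among tested genes in vehicle follows from the filter. Counted from the top over all genes, it ranked 12137, 11252 and 11141 in vehicle, and 1766, 1950 and 1761 with KIRA6.

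How far Lrrc75b leads depends on how a rise is measured. On the log2(FPKM + 0.5) scale its fold change was 4.84 ± 0.16 (SE), the largest of 11778, ahead of Bmf at 4.42, a pro-apoptotic BCL2 relative. With a pseudocount of 0.1 FPKM the order turned, with Bmf at 5.86 and Lrrc75b at 5.62. The plain ratio of means was ranked for the 11773 tested genes with a vehicle mean above 0, since it has no finite value for the others. By it Lrrc75b (58.6) ranked 4, behind Atoh8 (109.0), Bmf (102.4) and Chdh (60.4). Atoh8 reached only 1.45 FPKM with KIRA6 and Chdh 1.01 FPKM, whereas Lrrc75b reached 26.9 FPKM. By limma-voom on estimated fragments it was the fifth, at 5.90, behind Bmf, Atoh8, Chdh and Gper1. By the difference in FPKM it ranked 226, where mt-Co1, an abundant mitochondrial transcript, led with 2407 FPKM. Lrrc75b kept the first place in each fit that left out 1 library, with a log2 fold change of 4.73 to 4.92, and with both Vehicle replicate 3 and KIRA6 replicate 1 left out, with 4.89.

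The next genes in the log2(FPKM + 0.5) order were Bmf, the death receptor gene Fas, Cpt1a (entry of fatty acids into mitochondria), Prl2c3 (a prolactin-family gene with near-identical copies, so uncertain) and Artn, a neurotrophic ligand. Bmf had 0.18, 0.10 and 0.10 FPKM in vehicle and 14.55, 11.31 and 13.04 FPKM with KIRA6. Fas had 0.32, 0.35 and 0.44 FPKM, then 12.29, 9.88 and 7.89 FPKM. In these genes too the groups did not overlap, as in 27.7% of tested genes in the same direction. They were taken by the size of their rise, so nothing is read from it. Lrrc75b combined a vehicle level near that of Fas with a KIRA6 level near those of Cpt1a and Artn, whose means were 22.3 and 23.8 FPKM.

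**Figure D2:**
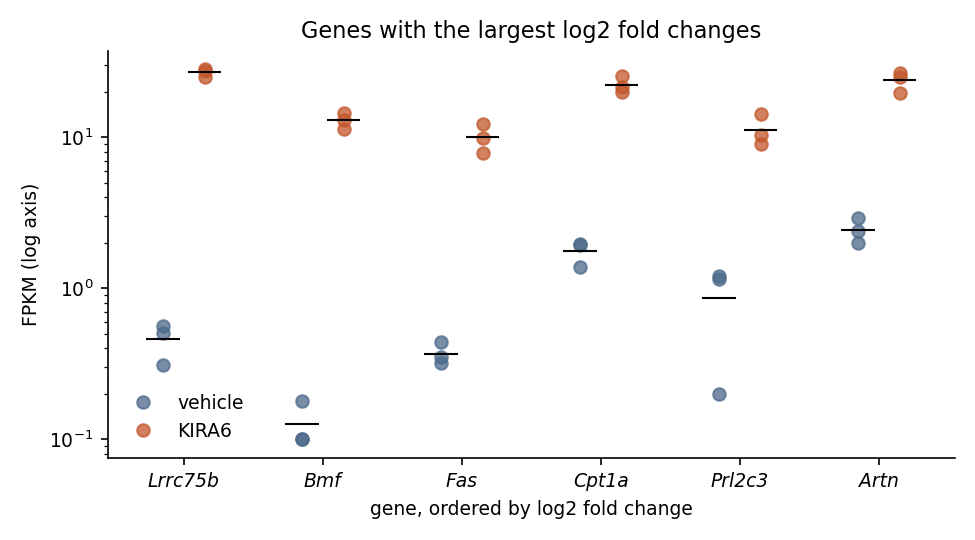
FPKM on a log axis of the 6 genes with the largest log2 fold changes, with points for the 3 vehicle and 3 KIRA6 libraries and black lines for group means. Lrrc75b has the highest KIRA6 mean of the 6 (26.9 FPKM), and Bmf the lowest vehicle mean (0.127 FPKM).

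Lrrc75a was expressed at a low level in both groups, and its groups overlapped. Its vehicle libraries had 1.53, 1.80 and 3.50 FPKM, from an estimated 58, 62 and 136 fragments. Its KIRA6 libraries had 1.77, 4.55 and 3.81 FPKM, from 79, 173 and 158 fragments. The high vehicle value came from Vehicle replicate 3 and the low KIRA6 value from KIRA6 replicate 1, which are the libraries that stood apart.

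The Lrrc75a means were 2.28 ± 1.07 and 3.38 ± 1.44 FPKM (SD, n = 3 each). Its log2 fold change was 0.47 ± 0.38 (SE), and limma made no call (adjusted p = 0.4182 over all tested genes). Over all tested genes the median was 0.16, and −0.0084 once libraries were scaled by their median ratio. Under that scaling Lrrc75a had 0.31, and with quantile normalization 0.17. With both Vehicle replicate 3 and KIRA6 replicate 1 left out, the fold change was 1.11 and was called by limma (adjusted p = 0.0008419, the lowest of 16 alternatives, whose highest was 0.7747). Leaving out these libraries, chosen because they stood apart, lowers the within-group spread by construction and raised the calls over all genes from 2783 to 6610 (56.1% of those tested). The call for Lrrc75a thus depends on these libraries.

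Because FPKM is per length, the levels of both genes can be set side by side within a library. In vehicle Lrrc75a was the more abundant paralog, by 4.94, 3.53 and 6.25 times. With KIRA6 Lrrc75b was the more abundant, by 15.97, 5.51 and 7.22 times. The order turned in every library, and the part of Lrrc75b in this turn is the part the choice of gene fixed. Over the 6 libraries the log2 levels of both genes had a Pearson r of 0.46, given as a description, and they share library and depth.

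Likeness of pattern was measured by Pearson r of log2(FPKM + 0.5) over the 6 libraries, which for Lrrc75b mostly records the step between groups. Of 11777 other tested genes 159 had an r above 0.99. The 5 named genes most like Lrrc75b were the methyltransferase gene Smyd3 (0.9996), the lysosomal protease gene Ctsd (0.9994), Ccdc74a (0.999), Ankrd13d (0.9989) and Mettl7a1 (0.9985). Their steps were smaller than that of Lrrc75b, which its choice by the largest rise made certain. Smyd3 had 1.24, 1.27 and 1.27 FPKM in vehicle and 1.72, 1.72 and 1.74 FPKM with KIRA6, a log2 fold change of 0.34 that was not called (adjusted p = 0.1036 by limma). Mettl7a1, which has close copies and is uncertain, had 0.55, 0.70 and 0.64 FPKM, then 3.90, 3.30 and 3.71 FPKM, a log2 fold change of 1.87. A high r therefore marked libraries that were even within each group and did not mark a rise of like size.

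The genes most like Lrrc75a showed another pattern, high in Vehicle replicate 3 and low in KIRA6 replicate 1. They were Rnpepl1 (r = 0.995), the Polycomb gene Phc1 (0.9942), Mbd6 (0.9937), Zdhhc12 (0.9936) and the kinase gene Jak3 (0.9936). Phc1 had 2.49, 2.73 and 4.30 FPKM in vehicle and 2.76, 4.88 and 4.78 FPKM with KIRA6. Mbd6 had 0.15, 0.34 and 3.29 FPKM, then 0.36, 4.53 and 4.07 FPKM. In each of the 5 the groups overlapped and limma made no call, with adjusted p from 0.379 to 0.4851. They were picked for likeness to Lrrc75a, so nothing is read from this shared pattern. Like Lrrc75a, all 5 were called higher only with both Vehicle replicate 3 and KIRA6 replicate 1 left out. That fit called 56.1% of all tested genes. The part of whatever sets these libraries apart in the Lrrc75a values was not tested.

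**Figure D3:**
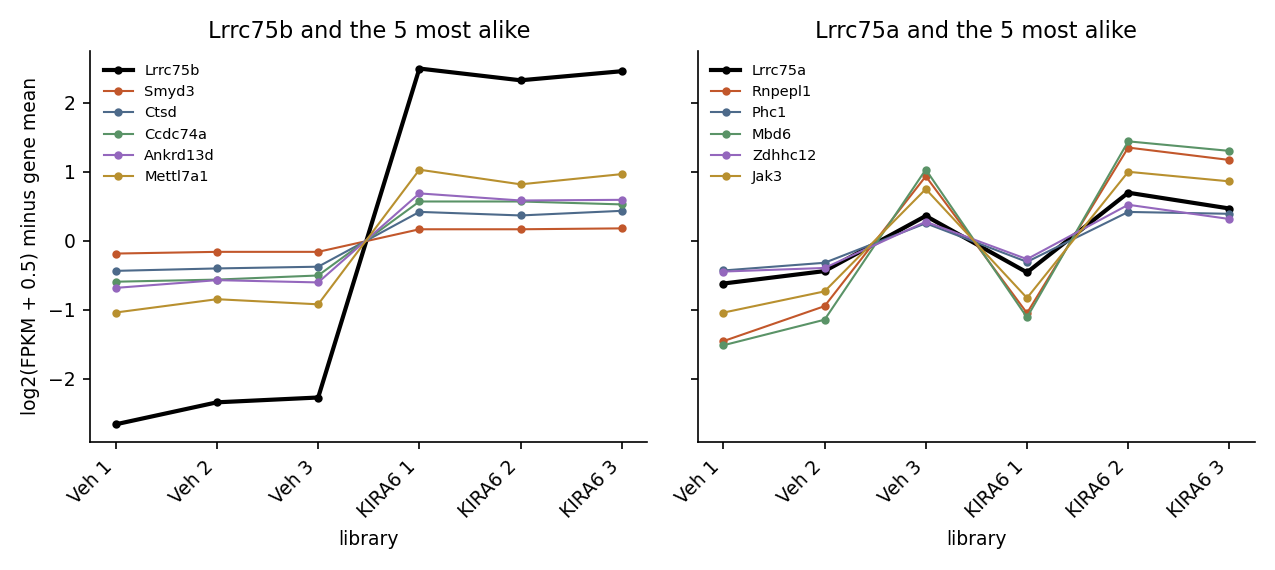
Log2(FPKM + 0.5) minus the mean of the gene over the 6 libraries, for Lrrc75b (left, black) and Lrrc75a (right, black) with the 5 genes most like each in color; lines only join the points of 1 gene. The left genes step between groups, and the right genes are high in Vehicle replicate 3 and low in KIRA6 replicate 1.

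Every other tested Lrrc-named gene had a smaller rise than Lrrc75b, which follows from its choice as the largest riser. Of the 69 others in the table, 20 were tested. Limma with Benjamini-Hochberg adjustment called 4 higher and 2 lower at an adjusted p below 0.05, 30% of the list, beside 23.6% of all tested genes (15.6% higher and 7.98% lower), so the share was near the background. The list median was 0.24, beside 0.16 over all tested genes. Groups did not overlap for 9 of the 20, beside 41.8% of all tested genes. The largest rise among the 20 was that of Lrrc61, from 0.28, 0.46 and 0.55 FPKM to 0.79, 2.07 and 1.40 FPKM, which is 1.00 as log2 fold change (adjusted p = 0.04174).

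Lrrc59, which encodes a ribosome-binding membrane protein of the endoplasmic reticulum, was the most abundant member and fell. It had 230.29, 237.36 and 169.40 FPKM in vehicle and 116.47, 85.78 and 93.86 FPKM with KIRA6, which is −1.10 ± 0.19 (SE) as log2 fold change (adjusted p = 0.009618 by limma). Lrrc8a, the obligatory subunit of the volume-regulated anion channel, fell from 3.90, 4.98 and 4.12 FPKM to 2.14, 2.10 and 2.35 FPKM (log2 fold change −0.84, adjusted p = 0.009902). Of its partner subunits, the tested Lrrc8b, Lrrc8c and Lrrc8d had log2 fold changes of 0.05, −0.80 and 0.39 and were not called. Lrrc8e, with means of 0.31 FPKM in vehicle and 0.44 FPKM with KIRA6, was not tested. Lrrc20 rose from 3.47, 3.41 and 3.43 FPKM to 5.68, 6.03 and 6.39 FPKM (adjusted p = 0.009331). Lrrc49, part of a tubulin-modifying complex, and Lrrc28 rose by 0.73 and 0.52 on the log2 scale.

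How far these calls held differed between genes. Lrrc59 was called in 15 of 16 alternative fits, and Lrrc20 and Lrrc8a in 14 of 16 each. Lrrc49 was called in 9 of 16, Lrrc61 in 8 of 15 and Lrrc28 in 5 of 15. With Vehicle replicate 1 left out 3 members were called, with Vehicle replicate 2 left out 1 and with KIRA6 replicate 3 left out 3. With KIRA6 replicate 2 left out 0 were called, although 6 then had an unadjusted limma p under 0.05. Over all 11778 tested genes the calls also fell in these fits, from 2783 to 1622, 1268, 1554 and 1211 in that order. Leaving out KIRA6 replicate 2 ended the calls for Lrrc20, Lrrc8a and Lrrc59, and leaving out Vehicle replicate 2 ended those for Lrrc20 and Lrrc8a. Median-ratio scaling and quantile normalization each called 1 higher and 2 lower, and ended the calls for Lrrc49, Lrrc61 and Lrrc28.

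**Figure D4:**
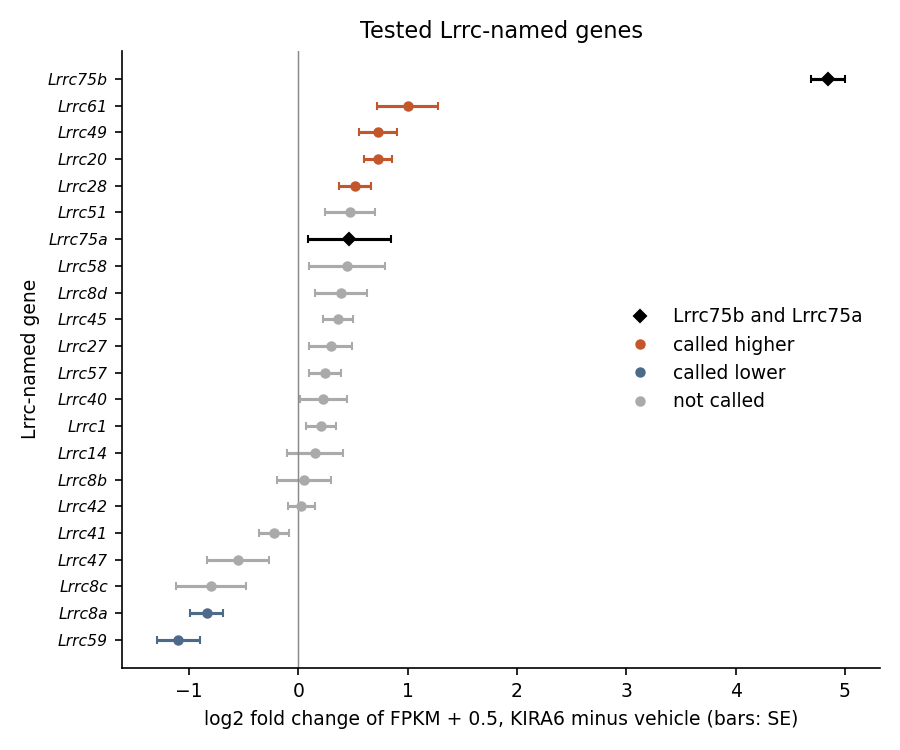
Log2 fold change, KIRA6 minus vehicle, of the 20 tested Lrrc-named genes with Lrrc75b and Lrrc75a as black diamonds; bars are SE, and color gives the limma call at an adjusted p below 0.05. Lrrc75b lies at 4.84, and the 20 others between −1.10 and 1.00.

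The genes around Lrrc75b on chromosome 10 changed less or were close to silent. That no tested gene rose more follows from the choice of Lrrc75b. Within 250000 bases of it the table has 21 other genes, of which 7 were tested and none overlaps it. Ggt1, a glutathione-degrading enzyme gene on the opposite strand that begins 1273 bases beyond the 5′ end of Lrrc75b, was at 0 in all vehicle libraries and at 0.05, 0.02 and 0.01 FPKM with KIRA6. Snrpd3, a core spliceosome gene 12741 bases from the 3′ end, had 72.65, 72.04 and 44.54 FPKM, then 54.50, 44.45 and 34.98 FPKM, and was not called (log2 fold change −0.48, adjusted p = 0.217 by limma). Cabin1, the nearest tested gene on the other side, had 3.30, 3.72 and 8.91 FPKM, then 3.16, 6.94 and 7.89 FPKM, and was not called (adjusted p = 0.7889).

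Of the 7 tested genes 4 were called higher and 0 lower by limma, beside 15.6% of all tested genes called higher; limma-voom also called 4 and 0, and 4 and 0 had an unadjusted p under 0.05. The strongest was Gstt3, a glutathione S-transferase gene, from 1.42, 1.45 and 1.88 FPKM to 3.99, 4.30 and 5.25 FPKM, with 1.27 ± 0.17 (SE) as log2 fold change (adjusted p = 0.003667). Ddt, a relative of the cytokine MIF, Gucd1 and the cytoskeletal gene Specc1l rose by 0.64, 0.75 and 0.55 on the log2 scale. Gstt3, Ddt and Specc1l lie 213784, 210899 and 237379 bases away, and Gucd1 lies 32150 bases away, the second nearest tested gene after Snrpd3. Gstt3 alone was called higher of the 7 with any 1 of Vehicle replicate 1, Vehicle replicate 2 and the 3 KIRA6 libraries left out. The same held with median-ratio scaling, and the calls for Ddt, Gucd1 and Specc1l ended in all these fits. Over all tested genes, calls higher fell from 1843 to between 817 and 1640 in these leave-one-out fits. With median-ratio scaling they numbered 1296.

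Around Lrrc75a on chromosome 11, 9 of 27 genes were tested, and limma called 0 higher and 1 lower (1 and 1 at an unadjusted p under 0.05; 0 and 1 by limma-voom), 11.1% of them beside 23.6% of all tested genes. The gene that fell was Trim16, which encodes a ubiquitin ligase, from 9.50, 10.46 and 10.20 FPKM to 5.47, 4.94 and 5.12 FPKM (log2 fold change −0.89, adjusted p = 0.004273). Lrrc75a is overlapped by 3 transcripts of the opposite strand. 2410006H16Rik, whose span holds Snord49a, Snord49b and Snord65, overlaps its 3′ end by 16 bases. It had 24.13, 20.29 and 11.56 FPKM in vehicle and 48.40, 36.99 and 28.15 FPKM with KIRA6, without overlap between groups, and missed the threshold (log2 fold change 1.03, adjusted p = 0.05673). Lrrc75aos1 and Lrrc75aos2 were at 0 in all vehicle libraries, and their only estimated fragments were 1 in KIRA6 replicate 3 and 2 in KIRA6 replicate 2. The strand setting of the counting is not given in the sources used here, so fragments from the shared bases could be counted for either gene. Mmgt2, a membrane transporter gene that begins 140 bases beyond the 5′ end of Lrrc75a, had 4.09 ± 0.77 and 3.0 ± 0.37 FPKM (SD, n = 3 each) and was not called (adjusted p = 0.1739 by limma).

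**Figure D5:**
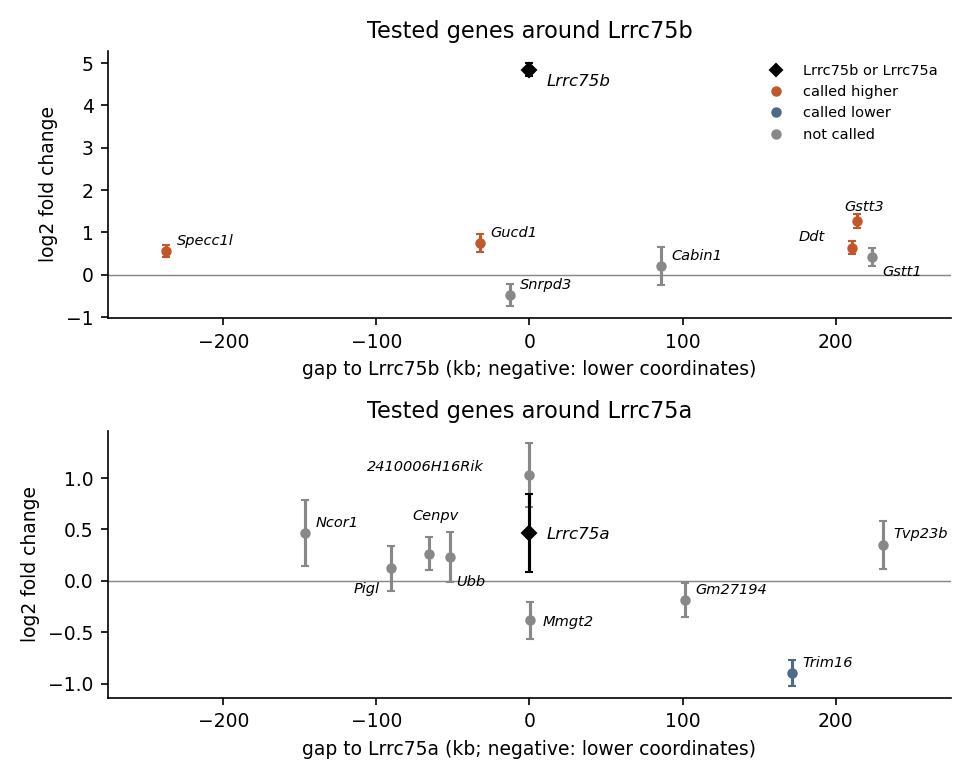
Log2 fold change, KIRA6 minus vehicle, of tested genes within 250000 bases of Lrrc75b (top) and Lrrc75a (bottom) against the gap to that gene in kb, with SE bars and genes that overlap drawn at 0. Around Lrrc75b at 4.84 the highest neighbour is Gstt3 at 1.27, and around Lrrc75a the only called gene is Trim16 at −0.89.

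The ERK cascade, on which Lrrc75b has been reported to bear in myoblasts, was described from a list of 26 genes taken by role. Of 25 tested members 2 rose and 3 fell, 20% in all, beside 23.6% of all tested genes, and the list median was −0.0097, beside 0.16. Those that fell were the feedback genes Dusp6, Spry4 and Spry2. Dusp6 had 39.97, 45.85 and 42.71 FPKM in vehicle and 1.36, 1.31 and 1.22 FPKM with KIRA6. Those that rose were Mapk3, which encodes ERK1, and Rps6ka3, which encodes an ERK-activated kinase. Mapk3 had 38.75, 40.36 and 35.14 FPKM, then 96.42, 83.74 and 83.06 FPKM, which is 1.19 ± 0.13 (SE) as log2 fold change (adjusted p = 0.002023 by limma). Rps6ka3 was no longer called with any 1 library other than KIRA6 replicate 1 left out, or with either scaling between libraries. With both Vehicle replicate 3 and KIRA6 replicate 1 left out, limma called 9 members higher and 7 lower of 25, beside 56.1% of all tested genes in that fit.

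Most of the muscle genes looked at were at or near 0 in these cells. Myod1, Myog, Myf5 and Pax7, transcription factors of the muscle lineage, were at 0 in all 6 libraries, and Des and Ckm did not exceed 0.02 FPKM in any. Acta1, which encodes skeletal muscle actin, was low but rose, from 0.39, 0.16 and 0.35 FPKM to 0.91, 1.5 and 1.21 FPKM (log2 fold change 1.09, adjusted p = 0.01159 by limma). The MEF2 factors, which are not limited to muscle, were present in part. Mef2a had 1.88, 1.87 and 2.22 FPKM in vehicle and 2.25, 2.88 and 3.48 FPKM with KIRA6 and was not called (adjusted p = 0.1405 by limma). Mef2d had 3.75, 4.47 and 18.18 FPKM, then 3.26, 11.06 and 10.84 FPKM, with overlapping groups, and Mef2c stayed at or below 0.25 FPKM.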

How the data were processed

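RNA was poly(A)-selected and sequenced as dUTP-stranded libraries, per the labels' protocols. GRCm39, HISAT2 2.2.1, cutadapt 1.9.1, DESeq2 1.34.0 and HTSeq 0.6.1 appear in the submitters' processing notes, and their settings are not given there. Deposited by the authors was FPKM per gene and library with 2 decimals, beside exonic lengths and coordinates.

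Fragments per library were estimated from the steps between low FPKM of short genes (all 1071 to 1298 values checked per library within 0.1 fragment of a whole number), and 3 fragments were taken as what a count of 0 allows. Levels were given as FPKM and not as counts. For genes averaging 0.5 FPKM or more, log2(FPKM + 0.5) was therefore fitted with limma 3.58.1 (R 4.3.3, trend, robust, two-sided). The p-values were Benjamini-Hochberg adjusted, and an adjusted p below 0.05 was called. The pseudocount understates folds of low genes. A 3 against 3 permutation cannot go below 0.1.

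The members and lists were chosen with earlier results of these data known. Besides the members, the text names genes that overlap them, nearest tested neighbours, the next 5 by log2 fold change, the 5 most like each, called list members and myoblast factors. Ggt1, Atoh8, Chdh, Gper1, mt-Co1 and the uncalled list members were added after their values were seen. Exon sequences and transcript lengths came from GENCODE M21 by symbol, without coordinates. Neither member matched the RefSeq promoter table. The values of 1 gene of the cascade list are not reported here.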

Additional observations from a re-analysis of the deposited data

How the results depend on the processing

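The log2 fold change of Lrrc75b was 5.62 with a pseudocount of 0.1 FPKM, 4.26 with 1 FPKM and 5.90 with limma-voom on estimated fragments, since the pseudocount weighs on its low vehicle level. It moved by less than the spread between libraries in the other 13 of 16 alternatives (4.73 to 4.92 with 1 library left out). It was the largest of all tested genes in 14 of 16. That of Lrrc75a was above 0 in 16 of 16 (0.24 to 0.81 with 1 library left out). It was called only without Vehicle replicate 3 and KIRA6 replicate 1 together (1.11), a fit added after seeing the data. Genes called over the table numbered 2783, 1211 to 3392 with 1 library left out, and 6610 in that added fit. Median-ratio scaling called 1296 higher and 1438 lower in place of 1843 and 940, and quantile normalization 1132 and 1182. Called Lrrc-named genes numbered 3 with median-ratio scaling, 3 with quantile normalization and 0 to 5 with 1 library left out. Called neighbours numbered 2 with median-ratio scaling, 10 in the added fit and 2 to 5 with 1 library left out. Called ERK cascade genes numbered 16 in the added fit and 4 to 6 with 1 library left out. The cause of these changes in counts was not tested. Whether replicate numbers pair the libraries is not known. Deviations of same-numbered libraries from their group means correlated at 0.762, −0.469 and 0.738, and Vehicle replicate 2 was most like KIRA6 replicate 1 (0.713). These values cannot decide it, because deviations cancel out within a group and an outlying library therefore shapes those of the others. With the replicate block 4423 genes were called, and Lrrc75a was not (0.47, adjusted p = 0.1421 by limma). The count test planned in case counts were given was not run, because levels were given as FPKM. Of the fits, only limma-voom used the estimated fragments. Depth limits the vehicle values of Lrrc75b most.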
